A study of Mus musculus with 48 samples.

Results

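A set of 8 genes of inhibitory neurons was followed across the series: Gad1, Gad2, Slc32a1, Abat, Pvalb, Lhx6, Dlx1 and Erbb4. They were taken by name as rows of the gene count table, 8 of 55357 rows, and all 8 were among the 21390 genes with enough counts to test. Adult wild-type C57BL/6J mice received kainate, a glutamate receptor agonist that induces status epilepticus (SE), or saline into the hippocampus of 1 hemisphere, and the dorsal dentate gyrus of both sides was collected on day 3, 7 or 14. The injected side is the epileptogenic zone (EZ) and the opposite side the peri-ictal zone (PIZ). Each of the 12 groups (region, injection and day) held 4 libraries, and both libraries of a mouse came from the same animal, which gave 48 libraries from 24 mice. Kainate mice entered the study only after a convulsive seizure was seen, no EEG was recorded, and the dissected tissue was the whole dentate gyrus with the hilus.

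GABA is the main inhibitory transmitter of the forebrain. It is made from glutamate by the glutamate decarboxylases Gad1 (GAD67) and Gad2 (GAD65), packed into synaptic vesicles by Slc32a1, the vesicular GABA transporter (VGAT), and broken down by Abat, GABA transaminase, which glia also express. Lhx6 and Dlx1 are homeobox transcription factors of forebrain interneurons, Pvalb is the calcium buffer of fast-spiking basket cells, and Erbb4 is the neuregulin receptor carried by many interneurons. In the dentate gyrus most neurons are glutamatergic granule cells, and hilar interneurons are a classic site of loss in temporal lobe epilepsy models.

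In the EZ, 5 of these genes, Slc32a1, Pvalb, Lhx6, Dlx1 and Erbb4, were downregulated 3.58- to 7.10-fold on days 3 and 7. Gad1 and Gad2 were called at neither day by edgeR scaled to all genes, the setting of this paragraph. On day 7 limma-voom with quality weights called Gad1 lower. Relative to pan-neuronal genes, edgeR called both higher on day 7, by less than the median gene. Abat was downregulated on day 3 on both sides and was not called on day 7. No member was called on day 14, when 1 of 4 kainate mice had low levels of those 5 genes. In the PIZ, Abat and Erbb4 were downregulated on day 3, and no member was called later.

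In the 24 saline libraries, levels per kilobase of exon followed the order Gad1, Abat, Gad2, Slc32a1, Erbb4, Pvalb, Lhx6 and Dlx1. The median was 26.2 CPM (counts scaled to a common library size) per kilobase for Gad1, with a range of 19.3 to 30.4, and 22.1 for Abat, 18.7 to 26.8. Gad2 lay at 18.4, between 13.4 and 25.9, so these 3 genes overlapped in range. Slc32a1 had a median of 5.52 CPM per kilobase, Erbb4 4.25, Pvalb 3.99, Lhx6 2.26 and Dlx1 1.52, and each of these overlapped in range with its neighbour in the order. Slc32a1 at its highest, 8.82, was below Gad2 at its lowest. As a mean of the 3 days, the saline EZ and saline PIZ did not differ in any member beyond the threshold. Of 8, 0 were called by edgeR's quasi-likelihood test, 0 had an unadjusted p under 0.05, and 0 were called by DESeq2 or limma-voom. The largest difference was that of Erbb4, a log2FC of -0.31 (SE 0.16). The saline sides were not tested on single days. In all 4 saline mice of day 3, Gad1, Abat, Dlx1 and Erbb4 were lower in the EZ. Their mean log2 differences (EZ minus PIZ) were -0.26, -0.21, -0.46 and -0.53. On day 7 they were -0.03, 0.01, 0.21 and -0.04, and on day 14 -0.09, -0.15, -0.15 and -0.31. Gad2, Slc32a1, Pvalb and Lhx6 were lower in 3 of 4 mice on day 3.

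On GRCm39, 5 of the 8 genes lie on chromosome 2: Gad2 (ENSMUSG00000026787.4, chr2:22511862-22583886, plus strand), Lhx6 (ENSMUSG00000026890.20, chr2:35971964-35995601, minus), Gad1 (ENSMUSG00000070880.11, chr2:70383416-70432372, plus), Dlx1 (ENSMUSG00000041911.4, chr2:71358457-71364325, plus) and Slc32a1 (ENSMUSG00000037771.12, chr2:158452605-158464883, plus). Erbb4 (ENSMUSG00000062209.16) lies at chr1:68071345-69147619 on the minus strand, Pvalb (ENSMUSG00000005716.17) at chr15:78075314-78091149 on the minus strand and Abat (ENSMUSG00000057880.13) at chr16:8331233-8439996 on the plus strand. Gad1, Dlx1, Slc32a1 and Erbb4 overlap long non-coding RNAs on the opposite strand (Gad1os, Dlx1as, Gm14204 and Gm14205, and Gm70081), and the counting was strand-specific. Erbb4 also overlaps Gm16076, a long non-coding RNA, on its own strand over 14828 bases by gene span, introns included, and counting by strand does not separate reads on the same strand. Promoters are given for Gad2, called in no comparison scaled to all genes, and for Slc32a1 and Dlx1, whose levels varied closely together. These are the 250 bases before each annotated start, 5′ to 3′ on the gene's strand. Capitals mark TAATT, the core that many homeodomain proteins bind, searched on both strands (AATTA on the other).
Gad2, chr2:22511612-22511861: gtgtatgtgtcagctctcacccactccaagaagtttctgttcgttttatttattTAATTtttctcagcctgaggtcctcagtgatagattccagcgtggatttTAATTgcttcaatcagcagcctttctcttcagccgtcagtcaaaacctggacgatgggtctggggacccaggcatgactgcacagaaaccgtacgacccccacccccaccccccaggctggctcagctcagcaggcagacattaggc
Slc32a1, chr2:158452355-158452604: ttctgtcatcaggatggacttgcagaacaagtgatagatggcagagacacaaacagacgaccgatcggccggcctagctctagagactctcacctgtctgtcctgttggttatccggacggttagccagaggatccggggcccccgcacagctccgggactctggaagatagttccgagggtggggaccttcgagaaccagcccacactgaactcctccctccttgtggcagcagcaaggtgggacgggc
Dlx1, chr2:71358207-71358456: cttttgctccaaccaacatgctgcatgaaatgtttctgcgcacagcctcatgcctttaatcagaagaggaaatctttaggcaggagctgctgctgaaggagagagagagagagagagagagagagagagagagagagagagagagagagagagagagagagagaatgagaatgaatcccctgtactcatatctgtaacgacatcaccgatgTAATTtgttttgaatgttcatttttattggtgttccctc
The letters occurred 2 times in the Gad2 window, 1 time in that of Dlx1 and 0 times in that of Slc32a1 or of the other 5 members. Each window precedes the start of the transcript that the annotation marks as canonical. The windows of Gad1 (chr2:70391353-70391602) and Pvalb (chr15:78090603-78090852) therefore lie inside the gene spans given above. That of Lhx6 (chr2:35995537-35995786) lies partly inside. Of 21627 protein-coding promoters of the same length, 5531 (25.6%) held them. No binding was measured here.

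**Figure D1:**
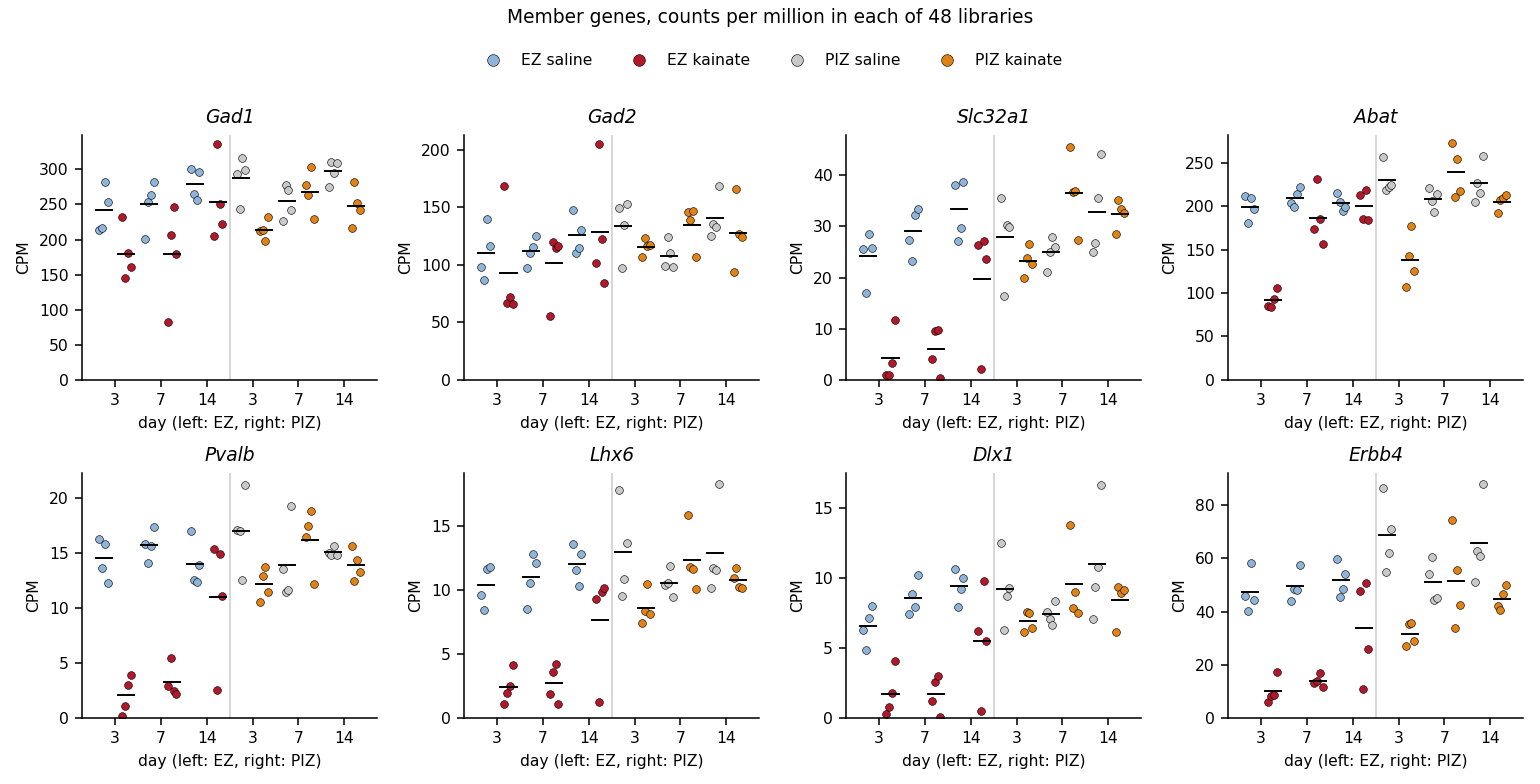
CPM (vertical axes, linear, from 0) of the 8 genes in each of the 48 libraries, by day on the horizontal axes with the EZ left and the PIZ right of the grey line; points are libraries and bars group means. In the EZ, the kainate points of Slc32a1, Pvalb, Lhx6, Dlx1 and Erbb4 lie below all saline points on days 3 and 7, while those of Gad2 do not.

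The first question was how the EZ differed between kainate and saline mice on each day. An adjusted p here is that of edgeR's quasi-likelihood test with Benjamini-Hochberg adjustment over all tested genes. A gene was called where it was under 0.01 and the level differed more than 1.5-fold, and a log2 fold change is written log2FC. On day 3 after SE induction, 6 of 8 members were called lower and 0 higher, where 8.61% of all tested genes were called lower and 16.1% higher. The median log2 fold change of the 8 was -2.02, against 0.03 over all genes.

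Gad1, the larger source of decarboxylase mRNA in saline tissue, had 146, 160, 180 and 232 CPM in the day 3 kainate EZ and 214, 217, 254 and 282 CPM in the saline EZ. The groups overlapped, with 1 kainate library above the 2 lowest saline libraries. The log2FC was -0.43 (SE 0.18, adjusted p = 0.0459), short of the call. Gad2 had 65.7, 66.8, 71.7 and 168.5 CPM with kainate and 87.3, 97.8, 116 and 140 CPM with saline. In 3 kainate libraries Gad2 was below the saline range, and in that of mouse 30 above it. The log2FC was -0.24 (SE 0.24, adjusted p = 0.429).

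Slc32a1, without which GABA is not loaded into vesicles, had 0.918, 0.995, 3.27 and 11.7 CPM in the day 3 kainate EZ (24, 26, 90 and 278 counts). The saline EZ had 16.9, 25.6, 25.8 and 28.6 CPM. The groups did not overlap, and the kainate libraries spread over a wider fold range than the saline ones. Slc32a1 was downregulated 5.80-fold, a log2FC of -2.54 (SE 0.56, adjusted p = 0.000321).

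Pvalb fell furthest of the 8 in the fit. It had 0.191, 1.11, 2.97 and 3.92 CPM with kainate, 5 to 93 counts, and 12.3, 13.6, 15.8 and 16.3 CPM with saline, a log2FC of -2.83 (SE 0.40, adjusted p = 8.98e-07). Erbb4 had 5.89, 8.30, 8.71 and 17.2 CPM with kainate and 40.3 to 58.4 CPM with saline, a log2FC of -2.24 (SE 0.29, adjusted p = 2.84e-07). For both genes the highest kainate library was below the lowest saline library. The transcription factors followed. Lhx6 had 1.11, 1.91, 2.503 and 4.12 CPM with kainate against 8.42 to 11.8 CPM with saline, and fell by 2.11 on the log2 scale (SE 0.36, adjusted p = 1.49e-05). Dlx1 had 0.268, 0.804, 1.78 and 4.08 CPM against 4.86 to 7.99 CPM, and fell by 1.93 (SE 0.53, adjusted p = 0.00299). In both genes mouse 30 was the lowest and mouse 44 the highest of the kainate libraries, as in Erbb4 and Pvalb.

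Abat had the smallest standard error of the called genes: 84.1, 85.1, 92.8 and 106 CPM with kainate and 181, 197, 210 and 211 CPM with saline. It was downregulated 2.17-fold, a log2FC of -1.12 (SE 0.11, adjusted p = 4.60e-09). In the 6 called genes every kainate library was below every saline library, as it was for 18.5% of all tested genes.

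The Dlx1 call was lost without kainate mouse 30 (adjusted p = 0.0178), kainate mouse 38 (0.0206) or saline mouse 41 (0.0102). When only the 8 libraries of the comparison were fitted, Slc32a1 (adjusted p = 0.0134) and Dlx1 (0.021) were not called on day 3, with log2 fold changes of -2.57 and -1.97.

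On day 7 after SE induction, 5 of 8 members were called lower and 0 higher in the EZ, with 11.9% of all genes called lower and 20.6% higher. Gad1 had 82.6, 180, 207 and 246 CPM with kainate and 201, 254, 263 and 282 CPM with saline, and Gad2 had 55.6, 115, 117 and 120 CPM against 97.4, 110, 115 and 125 CPM. Both decarboxylases were lowest in kainate mouse 21, and the other 3 kainate libraries of Gad2 were within the saline range. Kainate mice 21 and 35 had summed levels of 12 pan-neuronal genes of 1975 and 2133 CPM, against 4756 and 4263 CPM in mice 23 and 26. Their sums of 8 microglial genes were 5058 and 3669 CPM, against 1301 and 1948 CPM. The part of these in the day 7 values was not tested. The log2FC was -0.48 for Gad1 (SE 0.18, adjusted p = 0.0208) and -0.14 for Gad2 (SE 0.24, adjusted p = 0.647). Gad1 was called without kainate mouse 26 (log2 fold change -0.68, adjusted p = 0.00216) and by limma-voom with quality weights (-0.66, adjusted p = 0.00241).

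Slc32a1 on day 7 had 0.332, 4.16, 9.64 and 9.67 CPM with kainate and 23.3, 27.4, 32.1 and 33.4 CPM with saline, a log2FC of -2.30 (SE 0.55, adjusted p = 0.000542). The lowest, of mouse 35, was 8 counts, and the same library had 1 count of Dlx1. Dlx1 otherwise had 1.22, 2.55 and 2.96 CPM with kainate and 7.45 to 10.2 CPM with saline, a log2FC of -2.35 (SE 0.54, adjusted p = 0.000331). Lhx6 had 1.12, 1.84, 3.57 and 4.25 CPM with kainate against 8.52 to 12.8 CPM, a log2FC of -2.03 (SE 0.36, adjusted p = 1.25e-05). In all 3 the highest kainate library was below the lowest saline library.

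Pvalb had 2.20, 2.42, 2.90 and 5.41 CPM in the day 7 kainate EZ and 14.1 to 17.3 CPM in the saline EZ, a log2FC of -2.30 (SE 0.39, adjusted p = 5.36e-06). Erbb4 had 11.5, 13.01, 13.8 and 17.0 CPM against 44.1 to 57.4 CPM, a log2FC of -1.84 (SE 0.29, adjusted p = 1.67e-06). Abat had 156, 174, 186 and 232 CPM against 200 to 223 CPM, a log2FC of -0.17 (SE 0.11, adjusted p = 0.191). In the 5 called genes every kainate library was below every saline library on day 7, as it was for 20.1% of all tested genes, and the groups of Gad1, Gad2 and Abat overlapped. Fitted on the 8 libraries alone, Slc32a1 (adjusted p = 0.026) and Dlx1 (0.0219) were again not called, with log2 fold changes of -2.30 and -2.36.

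**Figure D2:**
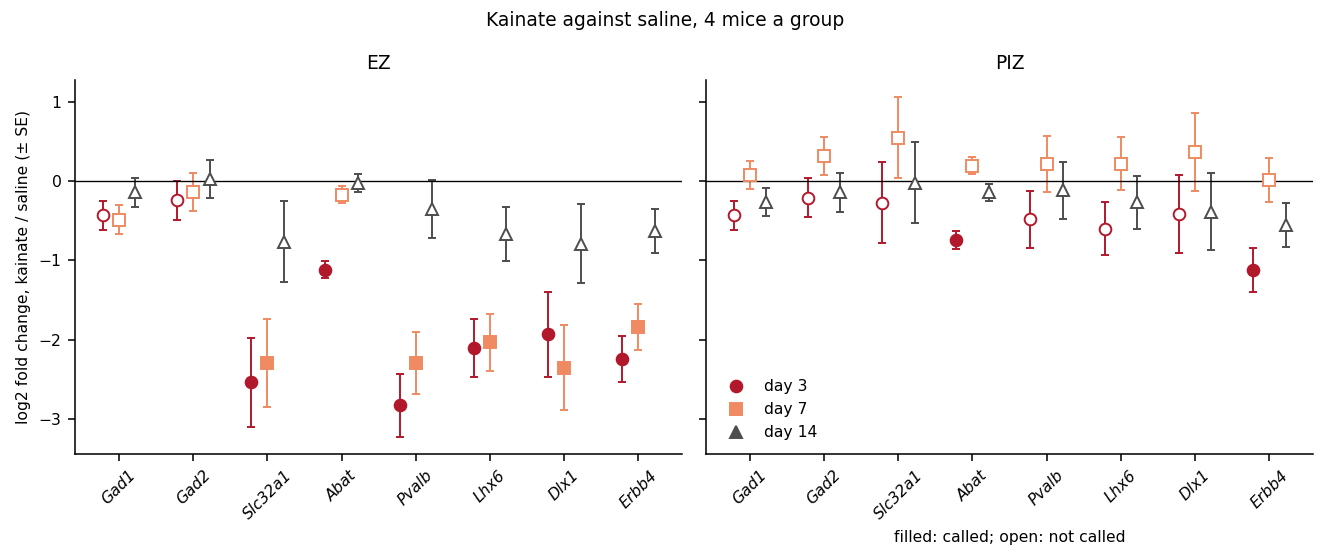
Log2 fold change of kainate against saline with its standard error (vertical axis) for the 8 genes in the EZ (left) and the PIZ (right), by day; filled symbols were called and open symbols were not, 4 mice a group. Slc32a1, Pvalb, Lhx6, Dlx1 and Erbb4 lie between -1.84 and -2.83 in the EZ on days 3 and 7, and Gad1 and Gad2 lie between -0.48 and 0.32 in all 6 comparisons.

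On day 14, 0 of 8 members were called in the EZ by edgeR, 0 by DESeq2 and 0 by limma-voom, with 0.0374% of all genes called lower. Erbb4 alone had an unadjusted p under 0.05 (log2 fold change -0.63, SE 0.28, adjusted p = 0.212). Slc32a1 had 23.6, 26.3 and 27.1 CPM in 3 kainate mice and 2.08 CPM in mouse 27, against 27.1 to 38.8 CPM with saline. Mouse 27 was likewise the lowest of its group for Pvalb (2.54 CPM, others 11.1 to 15.3), Lhx6 (1.27, others 9.33 to 10.1), Dlx1 (0.499, others 5.47 to 9.84) and Erbb4 (10.8, others 25.9 to 50.9). In the same library Gad1 was 336 CPM and Gad2 205 CPM, each the highest of all 48 libraries. In the PIZ of that mouse Slc32a1 was 35.2 CPM, above the saline median. The library of mouse 27 also had the lowest summed level of the 12 pan-neuronal genes in its group (4107 CPM, others 5339 to 6847) and the highest of the 8 microglial genes (2398 CPM, others 384 to 545) and of the 8 astrocyte genes (12060 CPM, others 5901 to 6702). The part of these in its low values was not tested. Its levels of Slc32a1, Pvalb, Lhx6, Dlx1 and Erbb4 lay within the ranges of the day 3 kainate EZ libraries, and its microglial and astrocyte sums within those of day 7. The library labelled day 14 was kept in that group as labelled. With mouse 27 left out the count on day 14 was again 0.

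Another question was whether the members kept a fixed proportion to each other, which no scaling of the libraries can alter. In the 24 saline libraries, the count of Gad1 was 7.01 to 14.9 times that of Slc32a1, with a median of 9.73. In the day 3 kainate EZ the ratio was 13.7 to 252 with a median of 101, and on day 7 it was 19.9 to 542 with a median of 23.5. All 4 libraries of day 7 and 3 of 4 of day 3 were above the saline range. Gad2 counts were 3.37 to 5.96 times those of Slc32a1 with saline, and 5.61 to 184 on day 3 and 11.9 to 352 on day 7 in the kainate EZ. On day 14, 3 kainate libraries had a Gad1 ratio within the saline range and mouse 27 had 161. In the kainate PIZ the Gad1 ratio was 6.08 to 10.7 over the 3 days. The ratio of Dlx1 to Slc32a1, 0.238 to 0.386 with saline, was 0.125 to 0.306 in the kainate EZ on day 7, and on day 3 it was 0.292 to 0.808. The ratio of Lhx6 to Slc32a1, 0.312 to 0.585 with saline, was 0.353 to 1.92 on day 3, above the saline range in 3 of 4 libraries, and 0.37 to 3.38 on day 7, above it in mouse 35. These ratios were chosen after the values had been seen and are given as a description, without a test.

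**Figure D3:**
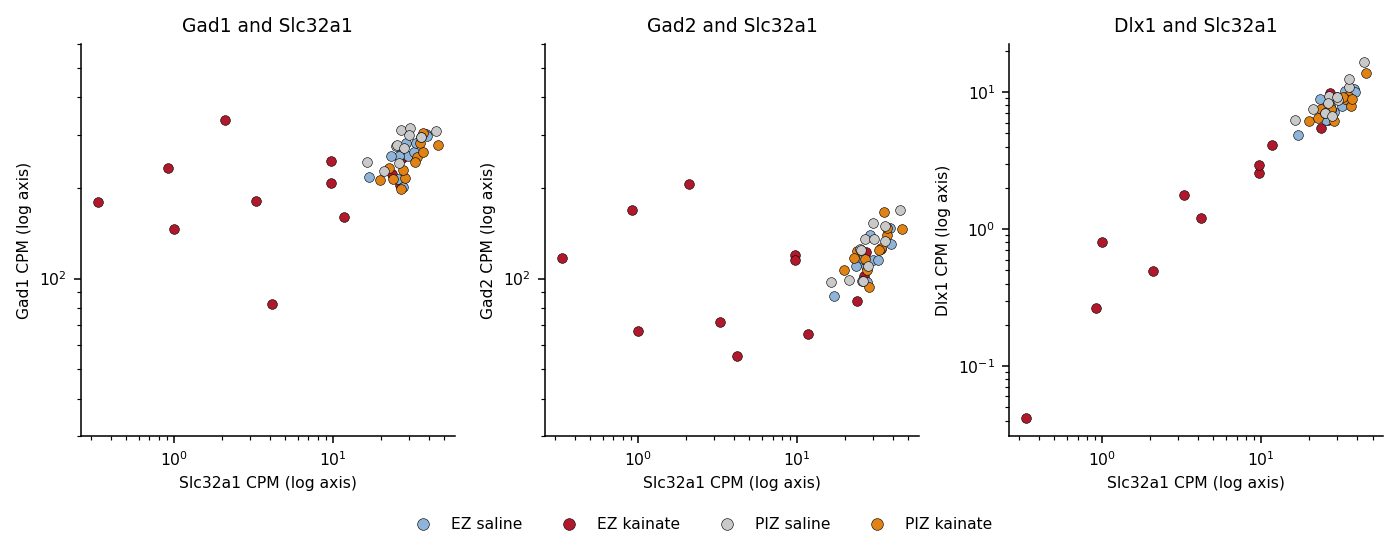
CPM of Gad1, Gad2 and Dlx1 (vertical, log axes) against CPM of Slc32a1 (horizontal, log axes), 1 point per library, coloured by region and injection. Dlx1 is low in the kainate EZ libraries where Slc32a1 is low, whereas Gad1 and Gad2 reach 336 and 205 CPM at 2.08 CPM of Slc32a1.

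The members also differed in how they varied together. Over the 48 libraries, log2 CPM of Slc32a1 and Dlx1 had a Pearson r of 0.98, and 0.97 after the 12 group means were subtracted, and Slc32a1 with Lhx6 had 0.96 and 0.89. Gad1 and Gad2 had 0.83 and 0.84. Gad1 with Slc32a1 had 0.51 over the libraries and -0.06 within groups, and Gad2 with Pvalb had 0.18 and -0.54. Abat, whose groups overlapped on day 7 like those of Gad1 and Gad2, had 0.66 and 0.56 with Slc32a1 and 0.78 and 0.62 with Erbb4, against 0.53 and 0.12 with Gad1 and 0.43 and 0.15 with Gad2. The points share libraries, and the values are descriptions. Among all genes with a mean log2 CPM of at least 1, the nearest to Slc32a1 over 48 libraries were its opposite-strand neighbour Gm14204 (0.98), Dlx1 and Col19a1 (0.97). The nearest to Dlx1 were Gm14204 (0.99), Slc32a1 and the neuropeptide Sst (0.96), the nearest to Lhx6 were Rpp25 (0.98), Nrsn1 and Cnr1 (0.97 each), and the nearest to Erbb4 were Rims3 (0.98), Dnm3 and Ankrd34b (0.97 each). Pvalb was nearest to Slc17a8, the vesicular glutamate transporter VGLUT3 (0.95), Neurod6 (0.95) and Sox1ot (0.93). Gad1 was nearest to Tspyl5 (0.86), Gm5124 and Ranbp6 (0.85 each), Gad2 to Gad1, Nap1l5 (0.80) and Prrg3 (0.76), and Abat to Prxl2a (0.92), Nkain4 and Bcan (0.91 each), Bcan being a proteoglycan of the perineuronal matrix. Within groups, the nearest gene to Abat was the GABA transporter Slc6a11 (0.80), and the nearest to Gad1 was Gad2.

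A tissue sample with fewer interneurons and one with less of these mRNAs per interneuron cannot be told apart in bulk RNA. The summed level of 12 pan-neuronal genes such as Snap25, Syt1 and Map2 had a median of 4204 CPM on day 3 and 3198 CPM on day 7, against 6437 and 6989 CPM with saline, and 6 and 8 of the 12 were called lower. The 12 did not move alike: relative to their own sum Nefl and Uchl1 were called higher and Elavl4 and Stmn2 lower on day 3, and Nefl, Stmn3 and Tubb3 higher and Elavl4 and Stmn2 lower on day 7. The members were therefore also compared after the libraries were scaled to that sum, which moved the median of all genes to a log2 fold change of 0.80 on day 3 and 1.27 on day 7. With this scaling 53.8% of all genes were called higher and 1.84% lower on day 3, and 75% higher and 0.912% lower on day 7.

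Relative to pan-neuronal genes, 4 members were called lower on day 3 and 0 higher. These were Slc32a1 (log2 fold change -1.92, SE 0.48, adjusted p = 0.000826), Pvalb (-2.10, SE 0.38, 2.47e-05), Lhx6 (-1.37, SE 0.30, 0.000214) and Erbb4 (-1.51, SE 0.26, 1.38e-05). Abat, called lower when scaled to all genes, was at -0.35 (SE 0.17, adjusted p = 0.0523), and Dlx1 at -1.25 (SE 0.47, 0.0177). Dlx1 was called lower by DESeq2 (-1.26, adjusted p = 0.00792) and by limma-voom with quality weights (-1.44, adjusted p = 0.000738). Without kainate mouse 44 edgeR called it as well (-1.88, adjusted p = 0.0019). On day 7, 4 members were called lower, Slc32a1 (-1.34), Pvalb (-1.13), Lhx6 (-0.999) and Dlx1 (-1.39), and 3 higher, Gad1 (0.64, SE 0.21, adjusted p = 0.00505), Gad2 (1.05, SE 0.27, 0.000513) and Abat (1.05, SE 0.17, 5.18e-07). Those 3 rose by less than the median gene of that comparison. Of these 7 calls, 1 remained without kainate mouse 35, that of Abat, and 2 when only the 8 libraries were fitted, those of Gad2 and Abat. Erbb4 was at -0.62 (adjusted p = 0.0238) and not called. Limma-voom with quality weights called Erbb4 lower (-0.86, adjusted p = 2.81e-05) and did not call Abat (0.54, under the fold threshold). Without kainate mouse 21 edgeR called Erbb4 lower (-0.82, adjusted p = 0.00597). With the glutamatergic neuron list in place of the pan-neuronal one, Gad1 (0.81, adjusted p = 0.00679) and Gad2 (1.03, adjusted p = 0.00806) were called higher on day 3 as well. The share of all genes called higher under that scaling is not given, so these 2 calls have no baseline. Under the pan-neuronal scaling it was 53.8% on day 3. In the PIZ no member was called relative to pan-neuronal genes by edgeR or DESeq2 on any day. On days 3, 7 and 14, 2, 0 and 1 members had an unadjusted p under 0.05. Limma-voom called Erbb4 lower on day 3 (-0.82, adjusted p = 5.08e-05) and Slc32a1 higher on day 7 (0.68, adjusted p = 0.00727).

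**Figure D4:**
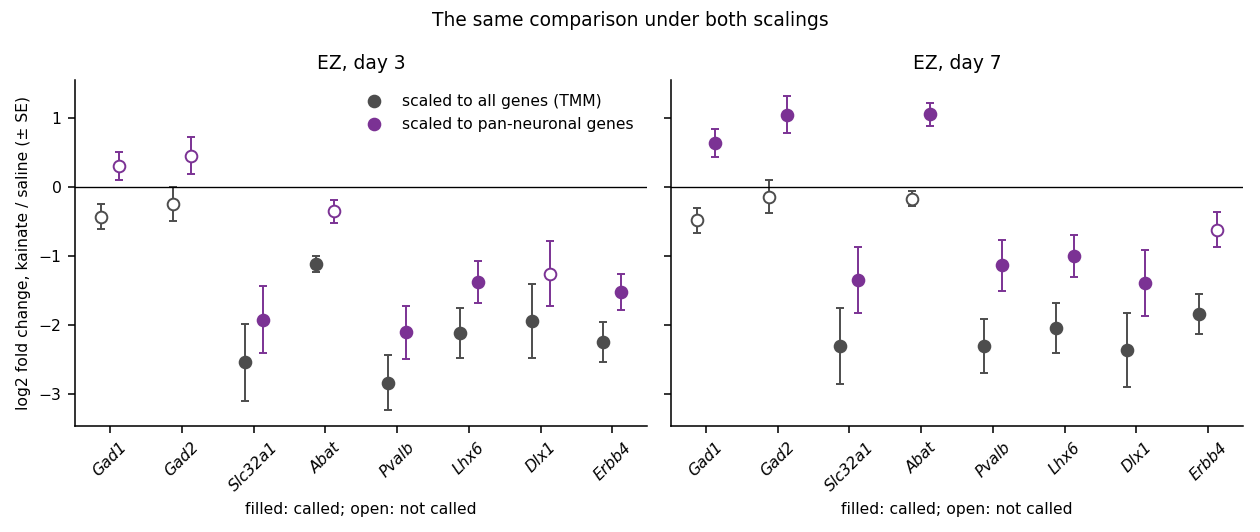
Log2 fold change of kainate against saline in the EZ with its standard error on day 3 (left) and day 7 (right), scaled to all genes (grey) or to 12 pan-neuronal genes (purple); filled points were called. Under both scalings Slc32a1, Pvalb, Lhx6, Dlx1 and Erbb4 lie below 0. On day 7 Gad1, Gad2 and Abat lie at -0.48, -0.14 and -0.17 in grey and at 0.64, 1.05 and 1.05 in purple, where the median of all genes lies at 0.01 and 1.27.

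In the PIZ, 2 of 8 members were called lower on day 3 and 0 higher, where 1.57% of all genes were called lower and 7.12% higher. Abat had 107, 125, 143 and 177 CPM with kainate and 219, 222, 225 and 257 CPM with saline, a log2FC of -0.74 (SE 0.11, adjusted p = 8.92e-06). Erbb4 had 27.2, 28.9, 35.2 and 35.5 CPM against 54.8, 62.2, 71.0 and 86.6 CPM, a log2FC of -1.12 (SE 0.28, adjusted p = 0.00334). In both genes every kainate library was below every saline library, as in 13.6% of all tested genes. The Erbb4 call was lost without kainate mouse 30 (adjusted p = 0.0117), saline mouse 18 (0.0196) or saline mouse 41 (0.011).

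The other interneuron genes had smaller differences there. Slc32a1 had 19.8 to 26.6 CPM in the day 3 kainate PIZ and 16.4 to 35.5 CPM in the saline PIZ, Pvalb 10.49 to 13.7 and 12.5 to 21.2 CPM, and Lhx6 7.41 to 10.45 and 9.57 to 17.9 CPM. All 3 overlapped between the groups, with log2 fold changes of -0.27, -0.48 and -0.60. Dlx1, at 6.14 to 7.60 against 6.32 to 12.5 CPM, and Gad2, at 106 to 123 against 97.5 to 153 CPM, also overlapped, with log2 fold changes of -0.41 and -0.21. Gad1 was 198 to 232 CPM against 244 to 316 CPM without overlap, at a log2FC of -0.43 (SE 0.18, adjusted p = 0.0771). On days 7 and 14, 0 of 8 members were called in the PIZ by edgeR, DESeq2 or limma-voom, with 0 members at an unadjusted p under 0.05, and 0.0514% and 0.00468% of all genes were called lower.

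The next question was whether the kainate effect differed between the sides. On day 7 it was lower in the EZ than in the PIZ for 5 of 8 members, with 2.88% of all genes called lower. The difference was -2.84 on the log2 scale for Slc32a1 (SE 0.75, adjusted p = 0.00637), -2.51 for Pvalb (SE 0.53, 0.00212), -2.26 for Lhx6 (SE 0.49, 0.00248), -2.72 for Dlx1 (SE 0.73, 0.00695) and -1.86 for Erbb4 (SE 0.40, 0.00224). In the 4 kainate mice of that day Slc32a1 was lower in the EZ than in the opposite side of the same animal by 1.92 to 6.02 on the log2 scale. In saline mice the same difference (EZ minus PIZ) was between -0.11 and 0.38. With mouse as a block in the same model the count was again 5. It was 0 without kainate mouse 21, kainate mouse 35 or saline mouse 20, 1 (Pvalb) without saline mouse 89, and 3 (Pvalb, Lhx6 and Erbb4) without saline mouse 33 or 34. When only the 16 libraries were fitted it was 3, the same genes.

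On day 3 no member was called for a difference between sides by edgeR, where 0.0281% of all genes were called lower. Of the members, 6 had an unadjusted p under 0.05, DESeq2 called 1 (Pvalb) and limma-voom with quality weights called 5. The share of all genes at that unadjusted p, or called by these 2 methods, is not given, so these counts have no baseline. Pvalb was at -2.35 (SE 0.53, adjusted p = 0.0314) and Slc32a1 at -2.26 (SE 0.75, adjusted p = 0.114). Without kainate mouse 44, whose Slc32a1 and Pvalb were the highest of its group, both were called (-3.54, adjusted p = 0.00557, and -2.88, adjusted p = 0.0027). In all 4 kainate mice of day 3, Slc32a1, Pvalb, Lhx6, Dlx1, Erbb4 and Abat were lower in the EZ than in the PIZ, and so were Dlx1, Erbb4 and Abat in all 4 saline mice. On day 14, 0 members were called by edgeR, DESeq2 or limma-voom, 0 had an unadjusted p under 0.05, and 0% of all genes were called lower.

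Across days, the kainate effect on Abat was called as different in 3 comparisons. Its effect in the EZ was higher on day 7 than on day 3 by 0.95 (SE 0.16, adjusted p = 0.00184) and on day 14 than on day 3 by 1.09 (SE 0.16, adjusted p = 8.85e-05), and in the PIZ higher on day 7 than on day 3 by 0.94 (SE 0.16, adjusted p = 0.00266). Of all genes, 0.112%, 0.753% and 0.014% were called higher in these comparisons. The PIZ call was lost when any of kainate mice 30, 44, 26 and 21 or saline mice 18, 41, 33 and 34 was left out, at log2FC of 0.83 to 0.95, and the EZ call between days 3 and 7 when only those libraries were fitted (adjusted p = 0.0245). Pvalb was higher on day 14 than on day 3 in the EZ by 2.48 (SE 0.53, adjusted p = 0.0043), which was not called when only those libraries were fitted (adjusted p = 0.102). It was also not called when any of kainate mice 38, 36 and 14 or saline mice 37, 18, 28, 39 and 31 was left out, at log2FC of 2.27 to 2.47. Without kainate mouse 44 Slc32a1 and Erbb4 were called as well, and without kainate mouse 27 Lhx6 and Erbb4.

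From day 7 to day 14 in the EZ edgeR called 0 members, where 0.122% of all genes were called higher on day 14 than on day 7. At an unadjusted p under 0.05 there were 5 members. DESeq2 called Pvalb, and limma-voom with quality weights called Slc32a1, Pvalb, Lhx6, Dlx1 and Erbb4. The 0.122% is that of edgeR, and no share of all genes is given for the other counts. Without mouse 27, edgeR called Pvalb, Lhx6 and Erbb4 higher on day 14 than on day 7, and without kainate mouse 23 it called Pvalb. The comparisons of days share groups with each other.

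Genes around the 8 members were read from lists by function. In the EZ on days 3 and 7, where the median log2FC of all genes was 0.03 and 0.01, the median was -0.19 and -0.33 for GABA uptake and metabolism, -1.01 and -0.96 for interneuron transcription factors, -1.65 and -1.95 for interneuron class markers, -0.88 and -1.37 for parvalbumin cell genes, and 0.34 and 0.96 for neuregulin and ErbB genes. The counts in the next paragraphs are scaled to all genes and stand beside 8.61% of all genes called lower and 16.1% higher in the EZ on day 3, 11.9% and 20.6% on day 7, and 1.57% and 7.12% in the PIZ on day 3. Relative to pan-neuronal genes, 53.8% of all genes were called higher and 1.84% lower on day 3, and 75% and 0.912% on day 7, so counts of higher genes near these shares say nothing particular about a list. In the GABA uptake and metabolism list 0 were then lower and 3 higher on day 3, and 0 lower and 8 higher on day 7. Of the transcription factors 5 were lower and 3 higher on day 3, and 3 lower and 5 higher on day 7. Of the class markers 6 were lower and 1 higher on day 3, and 6 lower and 3 higher on day 7. Of the parvalbumin cell genes 4 were lower and 0 higher on day 3, and 3 lower and 2 higher on day 7, and of the neuregulin and ErbB genes 0 were lower and 8 higher on each day. Of 11 genes of GABA uptake, precursor supply and breakdown, 3 were called lower and 1 higher in the EZ on day 3. Slc6a11 (GAT-3, an astrocyte GABA transporter) had 58.3 ± 9.60 CPM (SD, n = 4) with kainate and 116 ± 8.73 CPM with saline, a log2 fold change of -0.998. Glul, glutamine synthetase, fell by 0.64 on the log2 scale. Slc38a3, a glutamine transporter of astrocytes, rose from 78.2 ± 12.6 to 198 ± 33.4 CPM, a log2 fold change of 1.34. On day 7, 2 genes of the list were lower and 2 higher, the latter being Slc38a3 (1.91) and Slc38a5 (1.57), another glutamine transporter, while Slc6a11 was at -0.37 and not called. In the PIZ on day 3, Slc6a11 (-0.69) was lower and Slc38a3 (1.11) higher. Aldh5a1, which completes GABA breakdown after Abat, was at -0.52 on days 3 and 7 in the EZ, under the fold change threshold.

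Of 13 tested interneuron transcription factors other than the members, 9 were called lower and 1 higher in the EZ on day 3, and 7 lower and 2 higher on day 7. Dlx2, Dlx5, Dlx6, Npas1, Satb1 and Sp9 were among those lower on both days. Satb1 was at -1.01 and -0.98. Sox6, which oligodendrocyte precursors also express, was higher on both days (1.02 and 1.502), as was Maf on day 7. Of 4 markers of oligodendrocyte precursors, 3 and 4 were called higher on these days, and their part in the Sox6 values was not tested. In the PIZ on day 3, 0 were lower and Sox6 (0.80) was higher.

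Of 15 tested markers of interneuron classes, 11 were called lower and 0 higher on day 3 and 8 lower and 0 higher on day 7 in the EZ. Sst, a neuropeptide of hilar interneurons, had 5.16 ± 5.22 CPM with kainate and 44.9 ± 11.1 CPM with saline on day 3 (SD, n = 4), a log2 fold change of -3.13, and was at -2.28 on day 7. Cnr1, the cannabinoid receptor of cholecystokinin basket cells, was at -2.51 and -1.95, Cck at -1.498 and -2.13, and Nos1 at -0.79, not called, and -2.52. Npy, another neuropeptide of hilar interneurons, went the other way: it was 78.7 ± 15.3 CPM with kainate and 38.8 ± 4.49 CPM with saline in the EZ on day 3 (log2 fold change 1.02, adjusted p = 0.0444, not called). In the PIZ on day 3 Npy rose (1.70, adjusted p = 0.00376), while Cck (-0.78), Cort and Kit were lower.

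Of 11 further genes of parvalbumin cells, 6 were lower and 0 higher in the EZ on day 3 and 8 lower and 1 (Pthlh) higher on day 7, and 0 were called in the PIZ on day 3. Kcnc1, a potassium channel that allows fast spiking, was at -0.74 on day 3, not called, and at -1.37 on day 7, called. Cplx1, a regulator of vesicle release, was at -0.88 and -1.14.

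Of 11 tested genes of neuregulin and ErbB signaling other than Erbb4, 5 were called higher and 0 lower in the EZ on day 3, and 7 higher and 0 lower on day 7. Hbegf, a ligand of Egfr and Erbb4, had 83.6 ± 27.8 CPM with kainate and 8.26 ± 1.21 CPM with saline on day 3, a log2 fold change of 3.34, and was at 2.97 on day 7. Btc, a further ligand of both receptors, was at 2.57 and 2.01, Nrg1, the first neuregulin, at 1.27 and 1.97, and the co-receptor Erbb2 at 1.42 and 1.67. Adam17, a protease that sheds these ligands, was at 1.17 and 1.85, and at 0.86 in the PIZ on day 3, where it was the only gene of the list called. Egfr (0.90) and Erbb3 (0.96) were called on day 7 and not on day 3. Of the 11 genes, 0 were called by edgeR for a change of the kainate effect between these days in the EZ, and 2 had an unadjusted p under 0.05. Nrg2, Nrg3 and Nrg4 were at -0.41 to -0.56 on day 3 and at -0.43 to -0.75 on day 7, and not called. In these 5 lists 0 genes were called by edgeR in the EZ on day 14 or in the PIZ on days 7 and 14. In each list and comparison of those, 0 to 4 genes had an unadjusted p under 0.05.

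**Figure D5:**
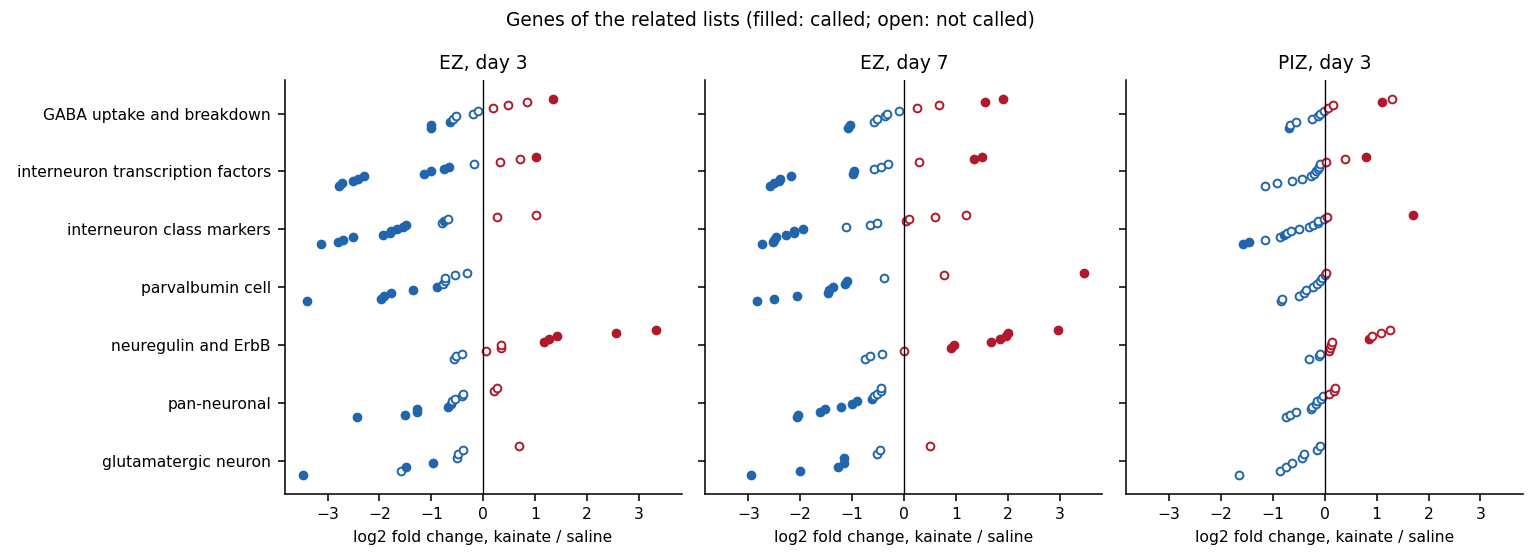
Log2 fold change of kainate against saline (horizontal axis) for each tested gene of 7 lists in the EZ on day 3, the EZ on day 7 and the PIZ on day 3; filled points were called, red above 0 and blue below. In the EZ the interneuron and neuronal lists lie mostly below 0 and 5 and 7 of 11 neuregulin and ErbB genes are filled above 0.

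Markers of other cells moved with the same comparisons. In the EZ, 7 of 8 microglial genes were called higher on day 3, 8 on day 7 and 6 on day 14, where 2.32% of all genes were called higher on day 14, and the summed microglial level ranged from 1148 to 2027 CPM on day 3 and from 1301 to 5058 CPM on day 7 with kainate, against 407 to 719 and 340 to 375 CPM with saline. In the PIZ on day 3 all 8 were called higher. Of 8 astrocyte genes, 3 were higher and 2 lower on day 3 and 5 higher and 0 lower on day 7 in the EZ. Of 8 glutamatergic neuron genes, 3 were lower on day 3 and 5 on day 7, among them Camk2a (-1.48 and -1.17), while Slc17a7, the vesicular glutamate transporter VGLUT1, was at -0.39 and -0.53 and not called. Of 8 granule cell genes 2 and 3 were lower, and Prox1, the defining factor of granule cells, was at -0.12 and -0.29, not called. Of 7 tested CA pyramidal genes 4 were lower on each day, and Mpped1, one of them, had a mean log2 CPM of 6.15 over all libraries. The summed level of 7 genes of striatum, a tissue of mostly GABA neurons, was 397 to 1751 CPM on day 3 and 476 to 1743 CPM on day 7 in the kainate EZ, against 167 to 184 and 169 to 187 CPM with saline, and it was 184 to 872 CPM on day 14 against 185 to 205 CPM. In that list Penk, an opioid peptide precursor, rose (log2FC 4.71 and 4.92 on days 3 and 7) and so did Drd1, while the striatal genes Pde10a (-1.07 and -0.64) and, on day 3, Ppp1r1b (-1.69) fell. Ttr, the defining gene of choroid plexus, was near 0, with a mean log2 CPM of -0.54. The part of these shifts in the members' values was not tested, beyond the scaling to neuronal genes given above.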

How the data were processed

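RNA of the dorsal dentate gyrus was measured in 48 libraries from 24 mice, 4 libraries in each of 12 groups of region, injection and day. Poly-A, strand-specific libraries were sequenced in pairs. Per the submitters' processing notes and the methods, reads were trimmed with fastp 0.20.1, aligned to GRCm39 with HISAT2 2.2.1 and assigned by strand to Gencode M28 genes (featureCounts, Subread 1.6.4), and raw counts per gene were deposited by the authors with no normalization. Reads with several alignments were counted at the primary one. Library totals were 17762656 to 25712975 counts.

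Counts were analysed in R 4.3.3 with edgeR 4.0.16: filterByExpr over the 12 groups, TMM scaling and 1 quasi-likelihood fit to all 48 libraries with 1 mean per group. A gene was called at an adjusted p (Benjamini-Hochberg over all tested genes) under 0.01 with a fold change over 1.5. The SE is the absolute log2 fold change over the square root of F. CPM are TMM-scaled, and log2 CPM used a prior count of 2. A second fit scaled libraries to the summed counts of 12 pan-neuronal genes. Alternatives were DESeq2 1.42.0, limma 3.58.1 (voom), other scalings, filters and thresholds, each mouse left out, and mouse as a block. The sides of a mouse are paired by the animal. Their residuals correlated between -0.06 and 0.54, with a median of 0.37 over 14971 genes. The model was tested on simulated data. Sequences and positions are from GRCm39 with Gencode M39, in which 98.9% of the identifiers were found.

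The 8 genes and all lists were chosen with earlier results of these data known. Named are the members, the genes of GABA uptake, precursor supply and breakdown and of neuregulin and ErbB signaling, the 3 most abundant of each other list with Sst and Npy, and the 3 genes most like each member. Other genes named beside a count were named after their values were seen. The sex of each mouse is not in the labels and was not used. Some genes of these lists are counted but not reported here by name.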

Additional observations from a re-analysis of the deposited data

Results flagged for a closer look

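Of the members' values, 6 stood apart from the other 3 libraries of their group by Dixon's criterion at 95%, which chance alone meets in about 1 of 20 groups of the 96 examined. In log2 CPM, these were Gad2 in the day 3 kainate EZ of mouse 30 (7.40, others from 6.04), Gad2 in the day 7 kainate EZ of mouse 21 (5.80, others to 6.91), Slc32a1 and Lhx6 in the day 14 kainate EZ of mouse 27 (1.12 and 0.44, others to 4.76 and 3.36), Abat in the day 3 saline PIZ of mouse 18 (8.01, others from 7.78) and Dlx1 in the day 14 kainate PIZ of mouse 14 (2.64, others to 3.24). Mouse 30 had the highest Gad2 and the lowest Pvalb (5 counts) of its group, and mouse 27 the highest Gad1 and Gad2 and the lowest Slc32a1, Pvalb, Lhx6, Dlx1 and Erbb4.

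Between sides or days, 9 effects differed by the test of the difference itself. Between EZ and PIZ on day 7, these were Slc32a1 (-2.84), Pvalb (-2.51), Lhx6 (-2.26), Dlx1 (-2.72) and Erbb4 (-1.86) on the log2 scale. Between days, they were Abat in the EZ from day 3 to day 7 (0.95) and to day 14 (1.09), Abat in the PIZ from day 3 to day 7 (0.94) and Pvalb in the EZ from day 3 to day 14 (2.48).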

How the results depend on the processing

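Among 3076 values of single members under all alternatives, 0 called values reversed in sign. That total includes values that could not count as reversed. These are values where only a threshold or the prior count changed, and values called neither in the main fit nor under the alternative. Of 184 counts of called members under alternatives other than leaving out a mouse, 163 were within 1.5 times the reported count, as were 163 of 196 with 1 mouse left out. A reported count of 0 that stayed 0 was taken as within, which raises both shares. A minimum of 10 counts in every library left Slc32a1, Pvalb and Dlx1 untested by its construction, and the counts became 3 (EZ day 3), 2 (EZ day 7), 2 (EZ minus PIZ, day 7), and, relative to pan-neuronal genes, 2 (day 3) and 4 (day 7). With only the groups compared in the fit they were 3 in the EZ on day 7, 3 for EZ minus PIZ on day 7, 0 from day 3 to 7 and 1 from day 3 to 14 in the EZ, 2 relative to pan-neuronal genes in the EZ on day 7 and 1 in the PIZ on day 3. At an adjusted p under 0.05 they were 1 for EZ minus PIZ on day 3, 2 from day 7 to 14 in the EZ and 1 relative to pan-neuronal genes in the PIZ on day 3. DESeq2 gave 1 for EZ minus PIZ on day 3 and 1 from day 7 to 14. Limma-voom with quality weights gave 5 for EZ minus PIZ on day 3, 5 from day 7 to 14, 6 from day 3 to 14, and 1 each relative to pan-neuronal genes in the PIZ on days 3 and 7. The cause was not tested, and no share of all genes called under these alternatives is given beside the counts. With each mouse left out in turn, counts ranged from 1 to 2 (PIZ day 3), 0 to 2 and 0 to 5 (EZ minus PIZ, days 3 and 7), 0 to 3 (day 7 to 14, EZ), 1 to 4 (day 3 to 14, EZ), 0 to 1 (day 3 to 7, PIZ) and 1 to 7 (relative to pan-neuronal genes, EZ day 7).

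With mouse as a replicate block in the paired edgeR fit, 0, 5 and 0 members were called for EZ minus PIZ on days 3, 7 and 14. Between the saline sides, as a mean of the 3 days, 0 were called. With the block in limma-voom (correlation 0.163) 6, 5 and 0 were called in the EZ and 2, 0 and 0 in the PIZ on days 3, 7 and 14, the same counts as in edgeR without a block. Limma-voom with quality weights and no block gave 6 in the EZ on day 7. Dlx1 had as few as 1 count and Pvalb 5 in a kainate EZ library. P-values of the main fit rest on a spread estimated for each gene over all 12 groups together, with the sides of a mouse taken as independent. The groups differed in spread. For Slc32a1 the SD of log2 CPM was 1.67 and 2.14 in the kainate EZ on days 3 and 7, and 0.33 and 0.24 in the saline EZ.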
